A study of Homo sapiens with 18 samples.

Results

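Transcript levels of 10 transcription factor genes that direct the maturation of myeloid cells were followed in 3 human acute myeloid leukaemia cell lines given the SHP2 inhibitor RMC-4550. The genes were SPI1 (which encodes PU.1), CEBPA, CEBPB, CEBPD, CEBPE, GFI1, KLF4, NR4A1, ID2 and ZEB2. They were chosen by name, with earlier results of these data known, and all 10 had a row among the 40184 gene IDs in the authors' table. Per the labels, the receptor kinase gene FLT3 holds an internal tandem duplication (ITD) in Molm-14 and MV4-11, and the receptor kinase gene KIT holds the N822K mutation in SKNO-1. All lines were grown in RPMI with fetal bovine serum, and SKNO-1 alone received human GM-CSF at 10 ng/mL, so the line and this cytokine cannot be told apart in any comparison with SKNO-1. Each line received either DMSO as vehicle or RMC-4550 at 500 nM for 24 h, the latter being an allosteric inhibitor of the phosphatase SHP2 (encoded by PTPN11), with 3 biological replicates in each of the 6 groups. Each line is 1 established cell line, so replicates measure the spread between cultures of that line and not between patients.

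PU.1 and the C/EBP proteins are the main factors that turn a blood progenitor into a monocyte or granulocyte. PU.1 binds purine-rich sites with a GGAA core and opens the regulatory regions of myeloid genes. The C/EBP proteins bind as dimers to TTGC-type sites: C/EBPα is required for the step from common progenitor to granulocyte and monocyte progenitor, C/EBPβ and C/EBPδ act later and under cytokine or inflammatory signals, and C/EBPε is needed for the last steps of granulocyte maturation. GFI1 is a repressor that favours granulocytes over monocytes. KLF4 and NR4A1 are zinc finger and nuclear receptor factors used by monocytes, and NR4A1 is also an immediate early gene that follows growth factor and MAPK signals. ID2 lacks a DNA-binding domain and blocks E proteins by binding to them, and ZEB2 is a repressor of E-box genes that takes part in monocyte and dendritic cell fate.

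The 250 bases before each annotated start were available from RefSeq for 8 of the 10 genes, in 12 windows, on GRCh38.p14. The 4 stretches shown are a selection: ID2, which also responded to the drug, and other GFI1 and NR4A1 windows are left out. Those shown belong to genes that responded in at least 1 line with 18 or 14 libraries or, for GFI1, hold a rare C/EBP match. Each is written 5′ to 3′ on the strand of its gene, and capitals mark the motif named. The CEBPA stretch lies at chr19:33302535-33302654 on the minus strand, ends just before the start, overlaps the first exon of a longer GENCODE 29 model by 30 bases, and holds a TATA box. The KLF4 stretch lies at chr9:107489770-107489889 on the minus strand, within an intron of a longer GENCODE 29 model, and holds the PU box GAGGAA. The NR4A1 stretch lies at chr12:52022712-52022831 on the plus strand, outside the annotated gene, and holds none of the motifs searched. The GFI1 stretch of 60 bases lies at chr1:92486208-92486267 on the minus strand, in an intron and upstream of an internal start, and holds the full C/EBP palindrome.
CEBPA: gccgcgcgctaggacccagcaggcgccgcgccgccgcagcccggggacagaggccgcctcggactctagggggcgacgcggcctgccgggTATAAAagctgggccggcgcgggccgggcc
KLF4: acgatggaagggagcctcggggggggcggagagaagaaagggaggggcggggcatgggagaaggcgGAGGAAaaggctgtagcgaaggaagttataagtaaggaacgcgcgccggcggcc
NR4A1: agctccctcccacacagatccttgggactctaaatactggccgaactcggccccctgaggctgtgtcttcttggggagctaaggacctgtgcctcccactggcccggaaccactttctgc
GFI1: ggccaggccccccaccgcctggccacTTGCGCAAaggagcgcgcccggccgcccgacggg

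The C/EBP palindrome TTGCGCAA began 142 bases before the internal GFI1 start, and 0.131% of 35116 RefSeq promoter windows of the same length hold it. The shorter C/EBP pattern TTGCNNAA, which the palindrome also matches on both strands, was found in 9.05% of windows and, among the members, only at that GFI1 site. The PU box GAGGAA, found in 23.6% of windows, lay 54 bases before the KLF4 start, 41 bases before the CEBPE start and 30 bases before the third GFI1 start. CEBPE also held the AP-1 site TGAGTCA, 100 bases before its start, and 6.57% of windows hold the pattern TGANTCA. The TATA box TATAAA, present in 10.7% of windows, lay 30 bases before the CEBPA start and 29 bases before the second CEBPB start. CCAAT boxes, present in 32.0% of windows, were found in the GFI1, CEBPB and ID2 windows. The cAMP response element TGACGTCA (1.65% of windows) and the ZEB E-box CACCTG (17.5%) had no match in these 12 windows. All motifs were searched on both strands, and these matches describe letters only: no binding was measured here.

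The libraries held 17434810 to 19959917 reads each, and a level of 1 CPM (reads scaled to library depth with the authors' factors) stood for 15.6 to 21.8 reads. Among them, 4 libraries stood apart by the share of reads from 23 mitochondrial genes: it was 15.0% in Molm-14 with RMC-4550 replicate 2, 12.7% and 14.6% in MV4-11 DMSO replicates 1 and 3, and 10.5% in MV4-11 with RMC-4550 replicate 1, against 5.07% to 7.02% in the other 14. In all 3 groups that held both kinds, these libraries had more SPI1, CEBPB, CEBPD and ID2 and less CEBPA, GFI1, KLF4, NR4A1 and ZEB2 than their fellow replicates. Results that use Molm-14 or MV4-11 are therefore given with all 18 libraries and with the 14 others, where MV4-11 keeps 1 DMSO library, whose spread is taken to be that of the other groups. MV4-11 had the middle DMSO level of the 3 lines for 52.7% of 11641 genes, and 0 of 9261 genes at 10 CPM or more in Molm-14 were under 1% of that level in MV4-11, against 69 in SKNO-1. These figures bear on whether the MV4-11 libraries hold RNA of that line alone, which was not tested and which touches every MV4-11 value given here. RUNX1T1, the partner gene of the fusion known in SKNO-1, was at 13.8 ± 0.607 CPM (SD, n = 3) in SKNO-1 DMSO, and no library of Molm-14 or MV4-11 had more than 1 read of it. The 6 myeloid markers, of which SPI1 is also a member of the set, summed to 982 to 1566 CPM over all libraries. They were uneven: with DMSO, ANPEP averaged 0.075 CPM in Molm-14, 0.70 CPM in MV4-11 and 24.8 CPM in SKNO-1. MPO averaged 3.58, 1.44 and 317 CPM in the same groups. ANPEP was at the floor of 3 reads in Molm-14 DMSO only. All 4 T cell markers were at that floor in every library, as were PF4 and PPBP of megakaryocytes, MS4A1 of B cells, DCN of fibroblasts, and HBA1 and HBA2 of erythroid cells. PTPN11 itself, whose protein the drug inhibits, was at 242 ± 10.9 CPM in Molm-14, 134 ± 45.8 CPM in MV4-11 and 130.1 ± 7.91 CPM in SKNO-1 among the controls, and with RMC-4550 at 125 ± 35.8, 107 ± 20.9 and 83.4 ± 3.79 CPM (SD, n = 3). The p-values rest on the spread between cultures within a group, pooled for each gene over all 6 groups of the fit. With 18 libraries the standard error of a response is therefore the same in all 3 lines. For SPI1 it was 0.19 in each, although the SD of its log2 level with DMSO was 0.38 in MV4-11 and 0.088 in SKNO-1. A fit of 1 line alone uses the spread within that line. Comparisons of DMSO levels share libraries with each other and with the responses, so they are not independent.

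**Figure D1:**
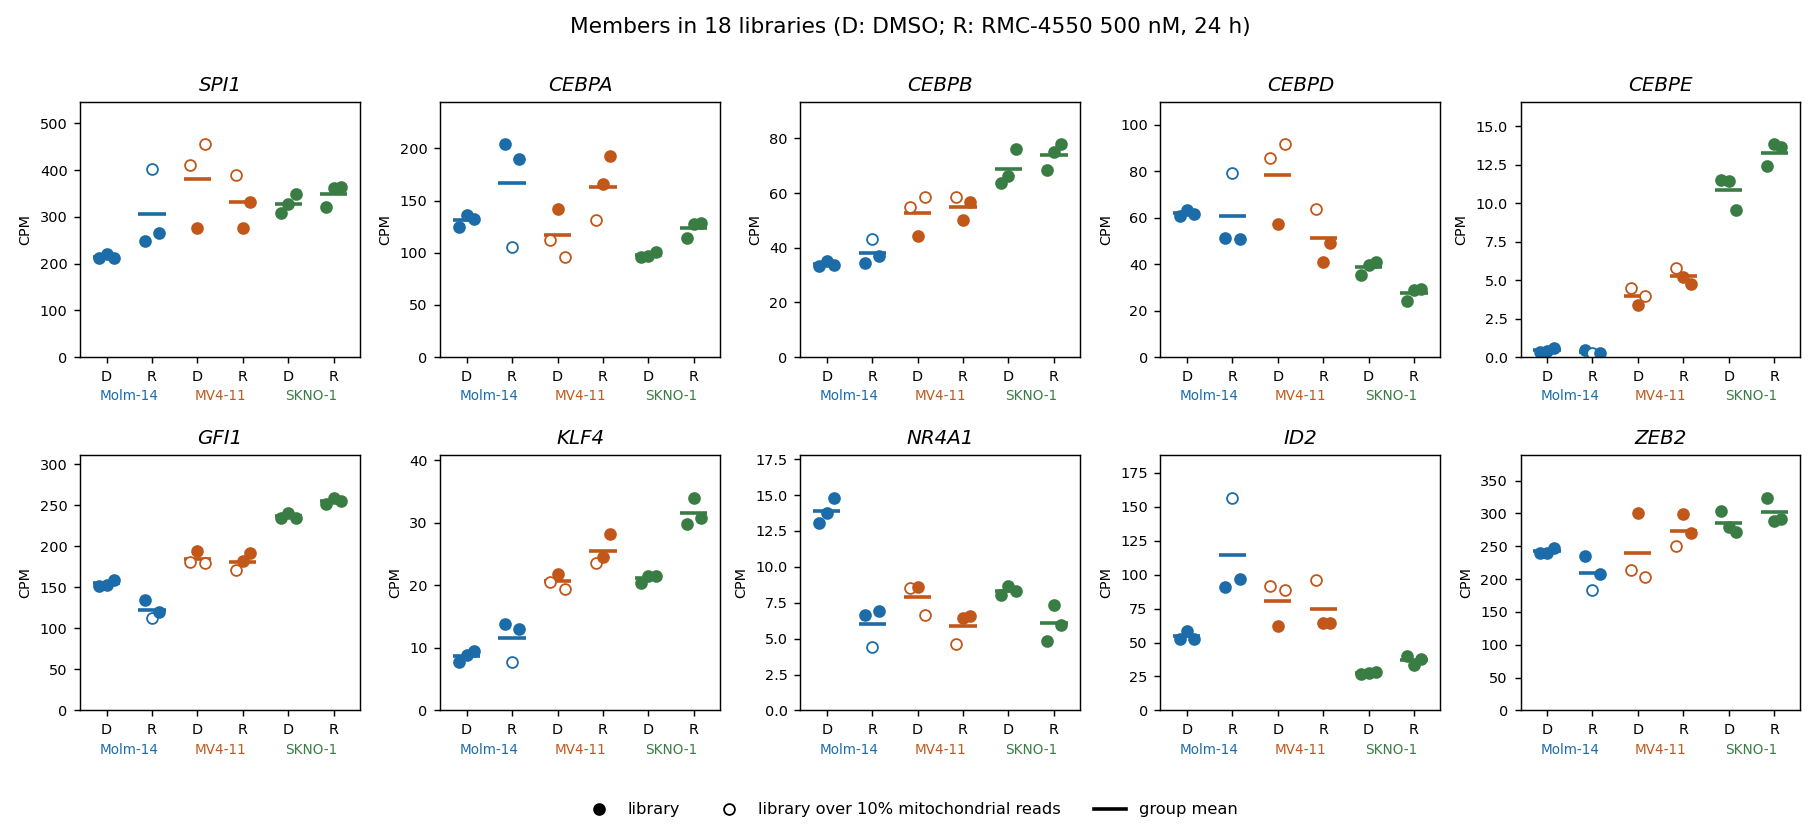
Level of each member (CPM, linear axis from 0, separate scale per gene) in 3 libraries of each of 6 groups, with the group mean as a line; open circles are the 4 libraries over 10% mitochondrial reads. SPI1 and CEBPD are high, and CEBPA low, in the open circles of a group, while CEBPE and KLF4 are lowest in Molm-14 and NR4A1 is highest in Molm-14 with DMSO.

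With DMSO alone, SPI1 was the most abundant member per length in every line. Scaled to the longest transcript (CPM per kb), its mean with DMSO was 152 in Molm-14, while MV4-11 had 272 and SKNO-1 had 234. GFI1 came second in each line, at 54.2, 64.9 and 83.0 CPM per kb, and CEBPA next, at 49.8, 44.4 and 37.2 CPM per kb. The least abundant were CEBPE in Molm-14 (0.289 CPM per kb) and NR4A1 in MV4-11 and SKNO-1 (1.64 and 1.73 CPM per kb). Below CEBPA in Molm-14 came CEBPD, ID2, ZEB2, CEBPB, KLF4, NR4A1 and CEBPE in that order. Neighbours whose libraries overlapped were CEBPD with ID2 and KLF4 with NR4A1 in Molm-14, CEBPA with CEBPB and KLF4 with CEBPE in SKNO-1, and the run from CEBPA through ID2, CEBPD and CEBPB to ZEB2 in MV4-11. All other neighbours were separated in all 3 libraries of the line. In bulk RNA, fewer expressing cells and less RNA per cell cannot be told apart, here and in each result that follows.

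The lines differed most in CEBPE, whose product completes granulocyte maturation. Its DMSO levels were 0.333, 0.404 and 0.613 CPM in Molm-14, 4.47, 3.38 and 3.95 CPM in MV4-11 and 11.5, 11.4 and 9.56 CPM in SKNO-1, with no overlap between any pair of lines. The Molm-14 values stand for 6 to 11 reads per library. On the log2 scale SKNO-1 exceeded Molm-14 by 4.54 ± 0.22 (SE, adjusted p = 2.5e-11) and MV4-11 by 1.46 ± 0.22 (SE, adjusted p = 7.4e-05), and MV4-11 exceeded Molm-14, a difference of -3.08 ± 0.22 (SE, adjusted p = 8.9e-09) for Molm-14 minus MV4-11. With 14 libraries these were 4.54, 1.67 and -2.87, all called. Among the other C/EBP genes, CEBPB was also lowest in Molm-14 and highest in SKNO-1, with DMSO levels of 33.2, 35.1 and 33.5 CPM, 54.9, 44.3 and 58.4 CPM and 63.6, 66.3 and 76.2 CPM. The log2 difference of SKNO-1 minus Molm-14 was 1.01 ± 0.11 (SE, adjusted p = 8.0e-07), that of SKNO-1 minus MV4-11 was 0.39 ± 0.11 (SE, adjusted p = 0.012) with 18 libraries and 0.63 ± 0.10 (SE, adjusted p = 1.2e-04) with 14, and that of Molm-14 minus MV4-11 was -0.62 ± 0.11 (SE, adjusted p = 2.7e-04) and -0.38 ± 0.10 (SE, adjusted p = 0.0051).

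CEBPD was lowest in SKNO-1. It was at 60.8, 63.1 and 61.5 CPM in Molm-14, 85.8, 57.1 and 91.6 CPM in MV4-11 and 35.2, 39.8 and 41.1 CPM in SKNO-1 with DMSO. Its level in SKNO-1 was below all libraries of both other lines, with log2 differences of -0.68 ± 0.20 (SE, adjusted p = 0.0060) against Molm-14 and -0.99 ± 0.20 (SE, adjusted p = 8.4e-04) against MV4-11, or -0.56 ± 0.12 (SE, adjusted p = 9.7e-04) with 14 libraries. CEBPA differed less between the lines, at 125, 136 and 132 CPM in Molm-14, 112, 142 and 96.3 CPM in MV4-11 and 95.6, 96.97 and 101 CPM in SKNO-1. No CEBPA comparison of lines passed the test with 18 libraries. With the 14 libraries SKNO-1 had less CEBPA than Molm-14, at -0.42 ± 0.062 (SE, adjusted p = 8.7e-06), and than MV4-11, at -0.54 ± 0.087 (SE, adjusted p = 1.0e-04), while Molm-14 minus MV4-11 was -0.12 ± 0.087 (SE, adjusted p = 0.27).

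SPI1 stood at 211, 219.7 and 211 CPM in Molm-14, 412, 276 and 455 CPM in MV4-11 and 309, 327 and 349 CPM in SKNO-1 with DMSO. Molm-14 was below every library of both other lines. The log2 difference was -0.80 ± 0.19 (SE, adjusted p = 0.0019) against MV4-11, or -0.37 ± 0.094 (SE, adjusted p = 0.0037) with 14 libraries, and, for SKNO-1 minus Molm-14, 0.62 ± 0.19 (SE, adjusted p = 0.0081), or 0.62 ± 0.067 (SE, adjusted p = 2.4e-07) with 14. SKNO-1 minus MV4-11 took opposite signs in the 2 sets of libraries, at -0.19 ± 0.19 (SE, adjusted p = 0.43) with 18 and 0.25 ± 0.094 (SE, adjusted p = 0.047) with 14, where it was called. GFI1 was highest in SKNO-1, at 235, 241 and 234 CPM, then in MV4-11, at 181, 195 and 180.1 CPM, and in Molm-14, at 152, 153 and 159 CPM. All 3 pairs of lines differed in GFI1, in both sets of libraries: SKNO-1 minus Molm-14 was 0.61 ± 0.074 (SE, adjusted p = 1.8e-06), SKNO-1 minus MV4-11 0.35 ± 0.074 (SE, adjusted p = 0.0013) and Molm-14 minus MV4-11 -0.26 ± 0.074 (SE, adjusted p = 0.0079) on the log2 scale, or 0.61, 0.28 and -0.33 with 14.

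Of the monocyte factors, Molm-14 had the least KLF4 and the most NR4A1. KLF4 was at 7.72, 8.94 and 9.58 CPM in Molm-14, 20.6, 21.8 and 19.5 CPM in MV4-11 and 20.4, 21.5 and 21.5 CPM in SKNO-1 with DMSO, with a log2 difference of -1.24 ± 0.16 (SE, adjusted p = 1.2e-05) for Molm-14 minus MV4-11, or -1.32 with 14 libraries. NR4A1 was at 13.1, 13.7 and 14.8 CPM in Molm-14, 8.502, 8.59 and 6.64 CPM in MV4-11 and 8.03, 8.67 and 8.33 CPM in SKNO-1, with a difference of 0.82 ± 0.19 (SE, adjusted p = 0.0023) for Molm-14 minus MV4-11, or 0.69 ± 0.18 (SE, adjusted p = 0.0046) with 14 libraries. Neither gene separated SKNO-1 from MV4-11, with log2 differences of 0.036 ± 0.16 (SE, adjusted p = 0.87, 95% interval -0.31 to 0.39) and 0.085 ± 0.19 (SE, adjusted p = 0.74, 95% interval -0.32 to 0.49), which took the other sign with 14 libraries, at -0.047 and -0.043. ID2 had 3 levels, 91.6, 62.04 and 88.99 CPM in MV4-11, 52.8, 58.8 and 52.6 CPM in Molm-14 and 26.7, 27.9 and 28.7 CPM in SKNO-1. The lower ID2 level of SKNO-1 against Molm-14 was -0.98 ± 0.20 (SE, adjusted p = 3.9e-04) on the log2 scale, whereas that of Molm-14 against MV4-11 passed the test with 18 libraries, -0.54 ± 0.20 (SE, adjusted p = 0.030), and not with 14, -0.18 ± 0.10 (SE, adjusted p = 0.13). ZEB2 was at 240.5, 240.1 and 247 CPM in Molm-14, 214, 301 and 203 CPM in MV4-11 and 304, 279 and 272 CPM in SKNO-1, and did not pass the test between any pair of lines with 18 libraries, at 0.23 for SKNO-1 minus Molm-14, 0.041 for Molm-14 minus MV4-11 and 0.27 for SKNO-1 minus MV4-11. With 14 libraries Molm-14 had less ZEB2 than both other lines, at 0.23 ± 0.061 (SE, adjusted p = 0.0024) for SKNO-1 minus Molm-14 and -0.31 ± 0.086 (SE, adjusted p = 0.0065) for Molm-14 minus MV4-11, the latter with a turned sign, while SKNO-1 minus MV4-11 was -0.081 ± 0.086 (SE, adjusted p = 0.48).

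In all, 8 of 10 members differed between SKNO-1 and Molm-14 (65.2% of all genes tested did), 7 of 10 between Molm-14 and MV4-11 (54.1%) and 5 of 10 between SKNO-1 and MV4-11 (41.6%), so differences between lines were about as common among the members as among all genes. In the 14 libraries the called members were 10 of 10 (80.8% of all genes tested), 7 of 10 (51.5%) and 7 of 10 (41.1%).

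With RMC-4550, the members that moved in Molm-14 were NR4A1 and GFI1, which fell, and ID2 and SPI1, which rose, 4 of 9 members tested against 46.7% of all genes tested. The first 3 were called in all 31 alternative analyses, and SPI1 in 17 of them. CEBPE was too low to be tested in that line. In SKNO-1 KLF4 alone passed the test in the fit over 18 libraries, 1 of 10 against 27.1%. In Molm-14, 2 members lay higher in every treated library than in every control (SPI1 and ID2, beside 26.9% of all genes tested) and 3 lower (GFI1, NR4A1 and ZEB2, beside 33.1%). No member passed in MV4-11 (limma, 0 of 10 against 13.9%), where 3 had an unadjusted p under 0.05 and a fit with voom weights called 1. There CEBPE and KLF4 were higher in every treated library (11.1% of all genes tested were) and NR4A1 lower (13.5%). In the 14 libraries without a high mitochondrial share, the standard errors of these responses were smaller except for CEBPE in MV4-11, with 7 of 9 members called in Molm-14 (58.7% of all genes tested), 2 of 10 in MV4-11 (28.4%) and 5 of 10 in SKNO-1 (53.3%). In that fit CEBPA rose and CEBPD fell in all 3 lines.

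**Figure D2:**
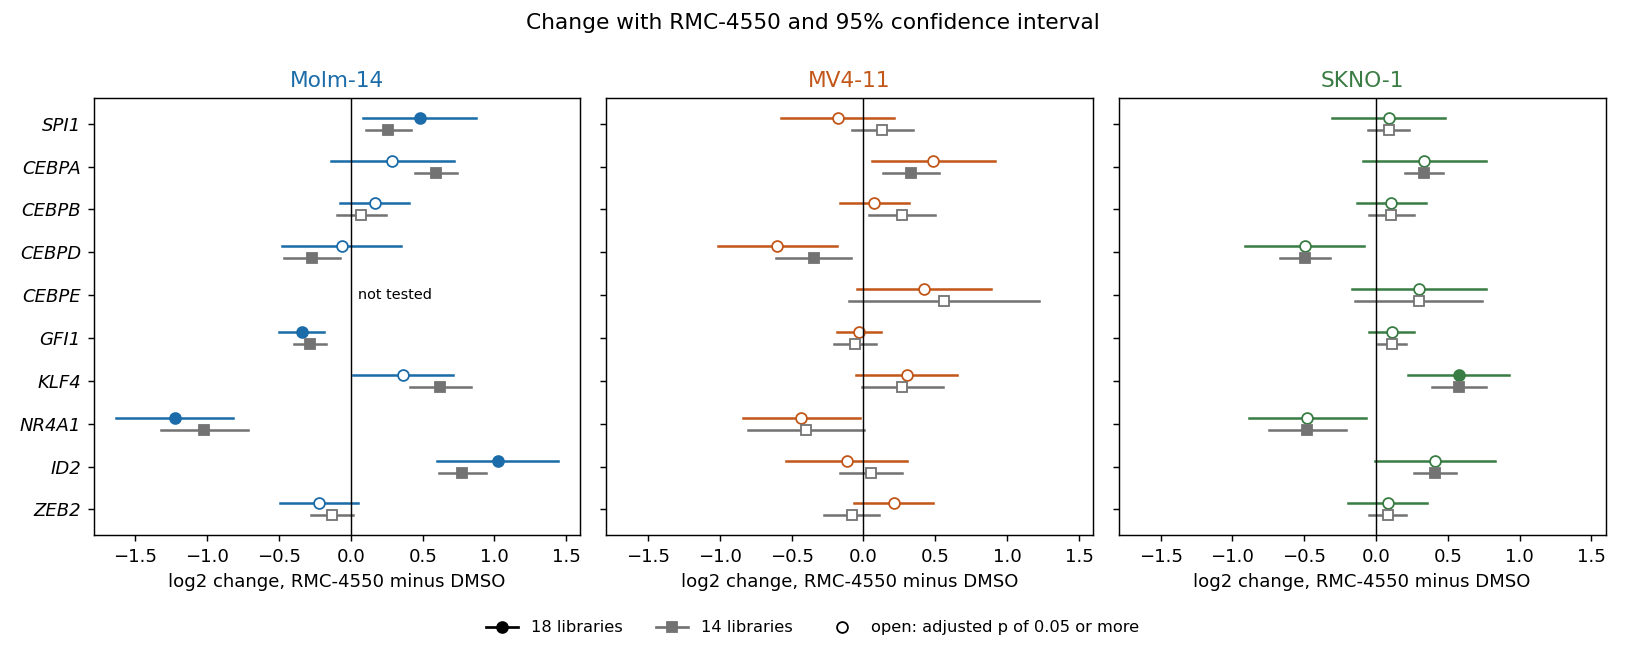
Log2 change of each member (RMC-4550 minus DMSO) in each line with its 95% confidence interval, from the fit over 18 libraries (coloured circles) and over the 14 libraries under 10% mitochondrial reads (grey squares); filled symbols have an adjusted p under 0.05. With 14 libraries CEBPA is higher and CEBPD lower in all 3 lines, and NR4A1 lies below 0 in each line in both fits.

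SPI1 lies on chromosome 11 (GRCh38, 47354860 to 47378576, minus strand, GENCODE 29). In Molm-14 its level was 211, 219.7 and 211 CPM with DMSO and 248, 403 and 265 CPM with RMC-4550. Every treated library was above every control, and the highest was the one with a high mitochondrial share. The log2 change was 0.48 ± 0.19 (SE, adjusted p = 0.045) with 18 libraries and 0.26 ± 0.075 (SE, adjusted p = 0.0067) with 14, but leaving out that 1 library alone from the 18 gave 0.26 with an adjusted p of 0.24. Of 31 alternative analyses, 17 kept the call, with log2 changes from 0.23 to 0.61 and adjusted p from 0.0039 to 0.24. It was lost with no filter on low values (adjusted p = 0.079), in a fit of Molm-14 alone (0.081) and without the intensity trend (0.061). It was also lost on leaving out any 1 of the 3 Molm-14 DMSO libraries, of the 6 SKNO-1 libraries, or MV4-11 RMC-4550 replicate 3 (0.052 to 0.099), each with the same direction. MV4-11 had 412, 276 and 455 CPM with DMSO and 390.0, 277 and 331 CPM with RMC-4550, and the groups overlapped. Its change was -0.18 ± 0.19 (SE, adjusted p = 0.60, 95% interval -0.57 to 0.21) with 18 libraries and 0.13 ± 0.10 (SE, adjusted p = 0.37, 95% interval -0.082 to 0.34) with 14, so that its sign depended on the libraries used. SKNO-1 had 309, 327 and 349 CPM and 322, 362 and 364 CPM, which also overlapped, with a change of 0.089 ± 0.19 (SE, adjusted p = 0.77, 95% interval -0.31 to 0.48).

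CEBPA, a gene without introns at chromosome 19 (GRCh38, 33299934 to 33302564, minus strand), had a response that depended on the choice of libraries. Molm-14 read 125, 136 and 132 CPM with DMSO and 204, 106 and 190.1 CPM with RMC-4550. The second treated library, with 15.0% mitochondrial reads, lay below all controls, and the other treated libraries lay far above them. The change was 0.29 ± 0.20 (SE, adjusted p = 0.25) with 18 libraries and 0.59 ± 0.069 (SE, adjusted p = 1.9e-06) with 14. In MV4-11 the levels were 112, 142 and 96.3 CPM with DMSO and 131, 166 and 193 CPM with RMC-4550. Compared within each kind of library, the treated mean exceeded the control mean by 0.33 on the log2 scale among those under 10% mitochondrial reads and by 0.34 among those over it. The test gave 0.48 ± 0.20 (SE, adjusted p = 0.13) with 18 libraries and 0.33 ± 0.093 (SE, adjusted p = 0.013) with 14. SKNO-1, which had no library of the high kind, went from 95.6, 96.97 and 101 CPM to 114, 128 and 128 CPM without overlap. Its change was 0.33 ± 0.20 (SE, adjusted p = 0.25) when the spread was shared with the 4 libraries and 0.33 ± 0.062 (SE, adjusted p = 2.5e-04) when they were left out.

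CEBPB, on chromosome 20 (50190734 to 50192689, plus strand), did not pass the test in any line with 18 or with 14 libraries. Its levels with RMC-4550 were 34.5, 43.2 and 36.99 CPM in Molm-14, 58.4, 50.1 and 56.7 CPM in MV4-11 and 68.6, 75.2 and 77.9 CPM in SKNO-1, which overlapped the DMSO levels of the same line in each case. The log2 changes were 0.16 ± 0.11 (SE, adjusted p = 0.24, 95% interval -0.076 to 0.41), 0.075 ± 0.11 (SE, adjusted p = 0.73, 95% interval -0.17 to 0.32) and 0.11 ± 0.11 (SE, adjusted p = 0.53, 95% interval -0.13 to 0.35). With 14 libraries they were 0.073, 0.27 ± 0.11 (SE, adjusted p = 0.080, 95% interval 0.035 to 0.50) and 0.11. The antisense gene CEBPB-AS1 was at 0.056 to 1.81 CPM.

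CEBPD, on chromosome 8 (47736909 to 47739086, minus strand), encodes the member of the family known for its induction by STAT3 and inflammatory signals. SKNO-1 had 35.2, 39.8 and 41.1 CPM with DMSO and 24.2, 29.04 and 29.3 CPM with RMC-4550, so every treated library was below every control. The change was -0.49 ± 0.20 (SE, adjusted p = 0.072) with 18 libraries and -0.49 ± 0.082 (SE, adjusted p = 9.6e-05) with 14. MV4-11 showed 85.8, 57.1 and 91.6 CPM with DMSO and 63.7, 41.01 and 49.1 CPM with RMC-4550. The treated libraries were lower within both kinds, with log2 differences of -0.35 under 10% mitochondrial reads and -0.48 over it, and the test gave -0.60 ± 0.20 (SE, adjusted p = 0.051) with 18 libraries and -0.35 ± 0.12 (SE, adjusted p = 0.046) with 14. Molm-14 had 60.8, 63.1 and 61.5 CPM with DMSO and 51.4, 79.4 and 50.9 CPM with RMC-4550. Its second treated library was above all controls and the others below all of them, and the change was -0.062 ± 0.20 (SE, adjusted p = 0.81) with 18 libraries and -0.27 ± 0.092 (SE, adjusted p = 0.018) with 14.

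CEBPE, on chromosome 14 (23117304 to 23119616, minus strand), reached 5.76, 5.21 and 4.77 CPM in MV4-11 and 12.4, 13.8 and 13.6 CPM in SKNO-1 with RMC-4550. These values lay above all DMSO libraries of the same line. The changes did not pass the test with 18 libraries, at 0.42 ± 0.22 (SE, adjusted p = 0.25, 95% interval -0.048 to 0.89) in MV4-11 and 0.30 ± 0.22 (SE, adjusted p = 0.35, 95% interval -0.17 to 0.76) in SKNO-1, nor with 14, at 0.56 ± 0.31 (SE, adjusted p = 0.20) and 0.30 ± 0.21 (SE, adjusted p = 0.25). A fit on the SKNO-1 libraries alone gave 0.30 ± 0.10 (SE, adjusted p = 0.025) in SKNO-1. Molm-14 was at 0.437, 0.256 and 0.283 CPM, 4 to 8 reads per library, which is near the floor of 3 reads.

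The proportions of the C/EBP genes within a library give a view that does not depend on how libraries are scaled against each other. In SKNO-1 CEBPA made up 37.4% to 39.3% of the length-scaled sum of the 4 genes with DMSO and 43.97% to 44.5% with RMC-4550, and CEBPD went from between 17.5% and 18.95% to between 11.4% and 12.2%. CEBPB held 35.2% to 38.1% and then 35.2% to 36.0%. In Molm-14 CEBPA held 51.3%, 52.2% and 52.3% with DMSO and 65.2%, 40.6% and 63.0% with RMC-4550, the low value being the library with a high mitochondrial share. In MV4-11 it held 37.7%, 51.4% and 33.0% with DMSO and 44.2%, 56.9% and 57.3% with RMC-4550. The sum of the 4 genes was 92.4 to 128 CPM per kb over all libraries.

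**Figure D3:**
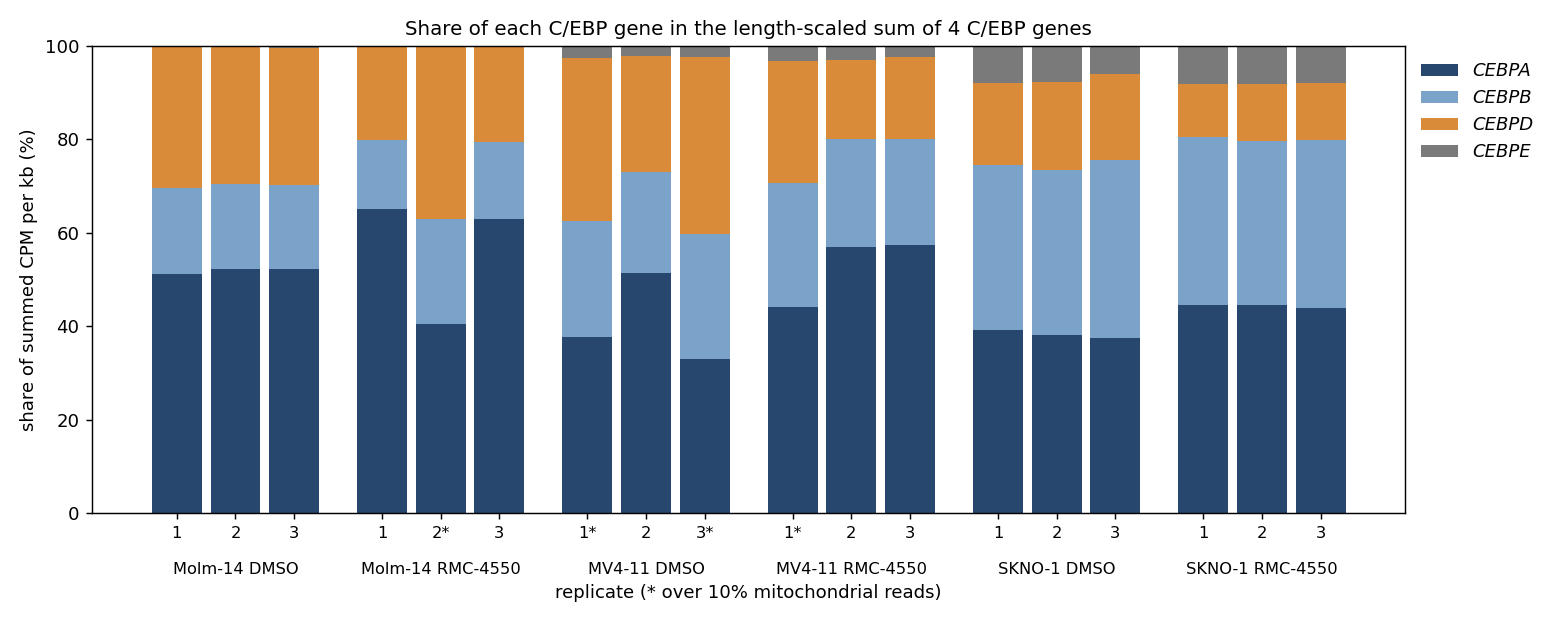
Share of CEBPA, CEBPB, CEBPD and CEBPE in their summed CPM per kb (%) in each of 18 libraries, with asterisks on the 4 libraries over 10% mitochondrial reads. In SKNO-1 the CEBPA share is 37.4% to 39.3% with DMSO and 43.97% to 44.5% with RMC-4550, and the CEBPD share is smaller in each treated library than in each control.

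The ratio of CEBPA to CEBPD, chosen after their values had been seen and so given without a test, summarises this shift. Per length it was 2.25, 2.02 and 2.03 in SKNO-1 with DMSO and 3.92, 3.65 and 3.62 with RMC-4550. Molm-14 had 1.70, 1.78 and 1.78 with DMSO and 3.29, 1.101 and 3.09 with RMC-4550, and MV4-11 had 1.08, 2.06 and 0.870 with DMSO and 1.70, 3.35 and 3.26 with RMC-4550. The 7 control libraries under 10% mitochondrial reads all lay below 2.25 or at it, and the 7 treated libraries of that kind all lay at 3.09 or above. In each group the libraries of the other kind were lower than their fellow replicates.

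**Figure D4:**
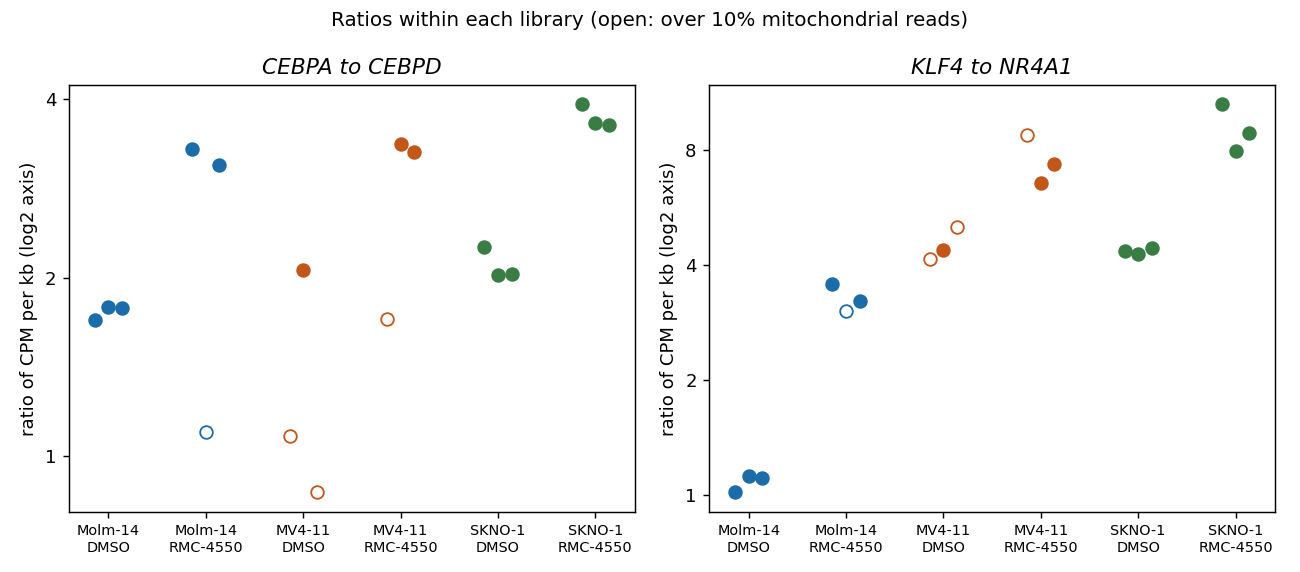
Ratios of CEBPA to CEBPD and of KLF4 to NR4A1 within each library (CPM per kb, log2 axis), with open circles for the 4 libraries over 10% mitochondrial reads. The KLF4 to NR4A1 ratio is higher in every treated library than in every control of the same line, and the CEBPA to CEBPD ratio is so only in SKNO-1 when the open circles are counted.

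GFI1, on chromosome 1 (92474762 to 92486876, minus strand), fell in Molm-14. It was at 152, 153 and 159 CPM with DMSO and 134, 112 and 120.2 CPM with RMC-4550, with every treated library below every control. The change was -0.34 ± 0.074 (SE, adjusted p = 0.0013) with 18 libraries and -0.28 ± 0.052 (SE, adjusted p = 1.9e-04) with 14, and the call was kept in all 31 alternative analyses, with log2 changes from -0.41 to -0.25. MV4-11 had 181, 195 and 180.1 CPM and 171, 182 and 192 CPM, which overlapped, with a change of -0.031 ± 0.074 (SE, adjusted p = 0.83, 95% interval -0.19 to 0.13), or -0.059 with 14 libraries, that turned to 0.0096 under median-ratio scaling. SKNO-1 had 235, 241 and 234 CPM and 252, 259.6 and 255 CPM, which did not overlap, with a change of 0.11 ± 0.074 (SE, adjusted p = 0.30, 95% interval -0.046 to 0.27) and no call.

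KLF4, on chromosome 9 (107484852 to 107490482, minus strand), rose in SKNO-1, from 20.4, 21.5 and 21.5 CPM with DMSO to 29.8, 34.1 and 30.8 CPM with RMC-4550. The groups did not overlap, and the log2 change was 0.57 ± 0.16 (SE, adjusted p = 0.016). That call was lost when SKNO-1 DMSO replicate 1 or SKNO-1 RMC-4550 replicate 2 was left out (adjusted p = 0.055 and 0.067). Molm-14 read 7.72, 8.94 and 9.58 CPM with DMSO and 13.8, 7.82 and 13.1 CPM with RMC-4550. The second treated library lay among the controls, and the change was 0.36 ± 0.16 (SE, adjusted p = 0.081) with 18 libraries and 0.62 ± 0.10 (SE, adjusted p = 4.8e-05) with 14. MV4-11 went from 20.6, 21.8 and 19.5 CPM to 23.7, 24.6 and 28.2 CPM without overlap. Its change was 0.30 ± 0.16 (SE, adjusted p = 0.27, 95% interval -0.048 to 0.65) with 18 libraries and 0.27 ± 0.13 (SE, adjusted p = 0.15) with 14, and it did not pass the test.

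NR4A1, on chromosome 12 (52022832 to 52059507, plus strand), had the largest change of any member tested. In Molm-14 its level was 13.1, 13.7 and 14.8 CPM with DMSO and 6.67, 4.42 and 6.96 CPM with RMC-4550. All treated libraries were under the lowest control, and the change was -1.23 ± 0.19 (SE, adjusted p = 9.9e-05) with 18 libraries, or 2.34-fold lower, and -1.02 ± 0.14 (SE, adjusted p = 1.3e-05) with 14. All 31 alternatives kept the call, with log2 changes from -1.35 to -1.02. In MV4-11 the levels were 8.502, 8.59 and 6.64 CPM with DMSO and 4.65, 6.43 and 6.597 CPM with RMC-4550, and in SKNO-1 8.03, 8.67 and 8.33 CPM and 4.86, 7.38 and 5.98 CPM. Neither pair of groups overlapped, yet neither passed the test with 18 libraries, at -0.43 ± 0.19 (SE, adjusted p = 0.17, 95% interval -0.84 to -0.022) and -0.48 ± 0.19 (SE, adjusted p = 0.079, 95% interval -0.89 to -0.068). SKNO-1 passed it with 14 libraries, at -0.48 ± 0.13 (SE, adjusted p = 0.0047), and MV4-11 did not, at -0.40 ± 0.19 (SE, adjusted p = 0.14). With the drug the 3 lines reached means of 6.01, 5.89 and 6.07 CPM, from 13.9, 7.91 and 8.35 CPM.

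The ratio of KLF4 to NR4A1, also chosen after the values had been seen and given without a test, separated treated from control libraries in every line, the high mitochondrial ones included. Per length it was 1.02, 1.12 and 1.11 in Molm-14 with DMSO and 3.57, 3.04 and 3.23 with RMC-4550. MV4-11 had 4.16, 4.37 and 5.05 with DMSO and 8.75, 6.57 and 7.35 with RMC-4550, and SKNO-1 had 4.37, 4.27 and 4.44 and then 10.5, 7.94 and 8.86. The differences of the mean log2 ratio were 1.60 for Molm-14, 0.74 for MV4-11 and 1.06 for SKNO-1.

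ID2, on chromosome 2 (8678845 to 8684453, plus strand), rose in Molm-14 and not in MV4-11. Molm-14 had 52.8, 58.8 and 52.6 CPM with DMSO and 90.6, 157 and 96.9 CPM with RMC-4550. Every treated library was above every control, including those with a low mitochondrial share. The change was 1.02 ± 0.20 (SE, adjusted p = 5.9e-04) with 18 libraries, 2.03-fold, and 0.78 ± 0.076 (SE, adjusted p = 2.5e-07) with 14, and all 31 alternatives kept the call. In MV4-11 the levels were 91.6, 62.04 and 88.99 CPM and 96.3, 64.04 and 64.4 CPM, and the libraries were grouped by mitochondrial share and not by treatment. The change there was -0.12 ± 0.20 (SE, adjusted p = 0.76, 95% interval -0.54 to 0.30) with 18 libraries and 0.05 ± 0.10 (SE, adjusted p = 0.76, 95% interval -0.17 to 0.27) with 14. SKNO-1 went from 26.7, 27.9 and 28.7 CPM to 39.7, 33.2 and 37.9 CPM without overlap, by 0.41 ± 0.20 (SE, adjusted p = 0.14) with 18 libraries and 0.41 ± 0.068 (SE, adjusted p = 9.3e-05) with 14. The antisense gene ID2-AS1 overlaps ID2 and was at 1.45 to 9.60 CPM, and since the strand used in counting is not given in the sources used here, reads of the pair may be mixed.

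ZEB2, on chromosome 2 (144364364 to 144524583, minus strand), did not pass the test in any line in either fit. Its levels with RMC-4550 were 236, 183 and 208 CPM in Molm-14, 251, 299 and 270.5 CPM in MV4-11 and 324, 289 and 292 CPM in SKNO-1. The Molm-14 libraries were all below their controls, and the other lines overlapped theirs. The changes were -0.22 ± 0.13 (SE, adjusted p = 0.17, 95% interval -0.49 to 0.051), 0.21 ± 0.13 (SE, adjusted p = 0.33, 95% interval -0.063 to 0.48) and 0.081 ± 0.13 (SE, adjusted p = 0.69, 95% interval -0.19 to 0.35) with 18 libraries, and -0.13, -0.083 and 0.081 with 14. ZEB2-AS1, its antisense neighbour, was at 1.45 to 3.59 CPM.

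In SKNO-1, where all 6 libraries had 5.22% to 5.91% mitochondrial reads, the groups did not overlap for 7 of 10 members: CEBPA, CEBPE, GFI1, KLF4 and ID2 were higher in every treated library (26.6% of all genes tested were) and CEBPD and NR4A1 lower (35.4%). The fit on this line alone called 6 of the 10, with CEBPA, CEBPE, KLF4 and ID2 higher and CEBPD and NR4A1 lower, against 56% of all genes tested. Its changes were 0.33 ± 0.057 (SE, adjusted p = 4.4e-04) for CEBPA, -0.49 ± 0.088 (SE, adjusted p = 5.8e-04) for CEBPD, 0.41 ± 0.076 (SE, adjusted p = 7.6e-04) for ID2 and -0.48 ± 0.15 (SE, adjusted p = 0.015) for NR4A1. The share of members called was thus near that of all genes.

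The responses of the lines were also compared directly. The ID2 response was higher in Molm-14 than in MV4-11, by 1.14 ± 0.28 (SE, adjusted p = 0.012) on the log2 scale, and this held in all 30 alternatives, with adjusted p from 0.00089 to 0.039. The value with 14 libraries was 0.73 ± 0.13 (SE, adjusted p = 9.2e-04). The GFI1 response was lower in Molm-14, with a difference of -0.31 ± 0.10 (SE, adjusted p = 0.047), but only 8 of 30 alternatives kept that call, with adjusted p from 0.016 to 0.17, and 14 libraries gave -0.23 ± 0.087 (SE, adjusted p = 0.087). These were 2 of 9 members tested, against 19.5% of all genes tested. NR4A1 came near the threshold, at -0.80 ± 0.27 (SE, adjusted p = 0.052, 95% interval -1.38 to -0.22), and SPI1 at 0.66 ± 0.26 (SE, adjusted p = 0.085, 95% interval 0.10 to 1.21). With 14 libraries these differences were smaller, at -0.62 ± 0.24 (SE, adjusted p = 0.084) for NR4A1 and 0.13 ± 0.12 (SE, adjusted p = 0.53) for SPI1. No member's response in SKNO-1 differed from the mean of the other lines (limma, 0 of 9 against 3.8%; 1 had an unadjusted p under 0.05, and voom called 0). With 14 libraries GFI1 alone did, by 0.28 ± 0.064 (SE, adjusted p = 0.0056), against 19% of all genes tested. Set against Molm-14 alone, a comparison added after seeing the data, the GFI1 response was higher in SKNO-1 by 0.45 ± 0.10 (SE, adjusted p = 0.010), the 1 call among 9 members against 10.9% of all genes tested. Set against MV4-11 alone, added in the same way, limma called 0 of 10 members (0 had an unadjusted p under 0.05) against 1.66% of all genes tested. For CEBPA, CEBPB and KLF4 the responses of Molm-14 and MV4-11 were not told apart, with differences of -0.20 ± 0.29 (SE, adjusted p = 0.62, 95% interval -0.80 to 0.41), 0.09 ± 0.16 (SE, adjusted p = 0.69, 95% interval -0.25 to 0.43) and 0.063 ± 0.23 (SE, adjusted p = 0.85, 95% interval -0.43 to 0.56). With 14 libraries the differences for CEBPA and CEBPB took the other sign, at 0.26 and -0.19.

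Of the close relatives of these factors, SPIB, the ETS factor most like PU.1, rose in all 3 lines. Its mean went from 2.37 ± 0.148 to 7.11 ± 0.685 CPM in Molm-14, from 2.38 ± 0.581 to 6.296 ± 0.818 CPM in MV4-11 and from 3.37 ± 0.239 to 7.87 ± 0.311 CPM in SKNO-1 (SD, n = 3). The log2 changes were 1.57 ± 0.17 (SE, adjusted p = 2.4e-06), 1.42 ± 0.17 (SE, adjusted p = 3.5e-05) and 1.22 ± 0.17 (SE, adjusted p = 5.6e-05), and with 14 libraries 1.498, 1.88 and 1.22, all called; 3.11% of the genes tested in all 3 lines were called higher in each. CEBPG, a C/EBP protein without an activation domain, fell in Molm-14, at -0.29 ± 0.083 (SE, adjusted p = 0.0094), and KLF6, a Krüppel-like factor, rose there by 0.55 ± 0.12 (SE, adjusted p = 0.0014). CEBPZ, which shares the family symbol but no leucine zipper, fell in Molm-14, at -1.09 ± 0.32 (SE, adjusted p = 0.011) with 18 libraries and -0.73 ± 0.07 (SE, adjusted p = 2.2e-07) with 14. The 14-library values of CEBPG and KLF6 in Molm-14 were -0.35 and 0.43, both called. In all, 2 relatives rose and 2 fell among 9 tested in Molm-14, 1 rose among 10 in MV4-11, and 1 rose and 1 fell among 9 in SKNO-1, beside 46.7%, 13.9% and 27.1% of all genes called. With 14 libraries the counts were 2 and 2, 1 and 2, and 2 and 2, beside 58.7%, 28.4% and 53.3%. With 18 libraries their median changes were 0.11, -0.14 and 0.0071, beside -0.058, -0.010 and -0.047 over all genes tested.

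Among 18 partners and regulators of the factors, TRIB1 rose and CBFB fell in every line. TRIB1 encodes a pseudokinase that marks C/EBPα for degradation. It went from 26.7 ± 1.18 to 41.3 ± 6.98 CPM in Molm-14, from 19.7 ± 2.59 to 39.1 ± 4.63 CPM in MV4-11 and from 18.7 ± 1.09 to 26.4 ± 1.898 CPM in SKNO-1, by 0.62 ± 0.13 (SE, adjusted p = 0.0011), 0.99 ± 0.13 (SE, adjusted p = 7.6e-05) and 0.50 ± 0.13 (SE, adjusted p = 0.0087). CBFB, the partner of RUNX1, fell, with changes of -0.44 ± 0.10 (SE, adjusted p = 0.0014), -0.56 ± 0.10 (SE, adjusted p = 8.9e-04) and -0.58 ± 0.10 (SE, adjusted p = 2.8e-04), and 5.8% of the genes tested in all 3 lines were called lower in each. GATA2, a progenitor factor that PU.1 opposes, fell in MV4-11 and SKNO-1, at -0.81 ± 0.13 (SE, adjusted p = 6.6e-04) and -0.71 ± 0.13 (SE, adjusted p = 9.7e-04), and not in Molm-14, at -0.14 ± 0.13 (SE, adjusted p = 0.41). TCF4, an E protein bound by ID2, fell in Molm-14, at -0.86 ± 0.16 (SE, adjusted p = 4.8e-04), and rose in SKNO-1 by 0.93 ± 0.16 (SE, adjusted p = 4.8e-04). The counts were 1 higher and 7 lower of 16 in Molm-14, 1 and 2 of 17 in MV4-11, and 2 and 2 of 18 in SKNO-1, beside 25.2%, 8.03% and 16.2% of all genes called lower, with medians of -0.36, -0.053 and -0.061. With 14 libraries they were 3 and 8, 1 and 8, and 5 and 7, beside 32.1%, 19.6% and 32.1% called lower, and TRIB1 and CBFB were called in every line, at 0.77, 0.85 and 0.50 and at -0.49, -0.55 and -0.58. The 14-library changes were -0.97 and -0.71 for GATA2 in MV4-11 and SKNO-1 and -0.998 for TCF4 in Molm-14, all called.

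Of the monocyte and phagocyte genes listed as targets of PU.1 and C/EBP proteins, those tested were called higher more often than lower. Like the other lists, this one was drawn up with earlier results of these data known. CD14, CYBB, FCN1, CD68 and VCAN averaged under 1 CPM in every group and were not tested in any line. LYZ, IL6R and TLR4 were not called in any line with 18 libraries. CSF1R, the receptor for M-CSF, had the largest rise among those named. CSF1R rose from 12.6 ± 2.25 to 70.2 ± 13.01 CPM in Molm-14, from 56.3 ± 11.5 to 129 ± 23.5 CPM in MV4-11 and from 132 ± 4.38 to 277 ± 16.8 CPM in SKNO-1. Its changes were 2.47 ± 0.17 (SE, adjusted p = 3.3e-08), 1.199 ± 0.17 (SE, adjusted p = 1.9e-04) and 1.06 ± 0.17 (SE, adjusted p = 2.5e-04), and with 14 libraries 2.64, 1.03 and 1.06, all called. NCF1, a subunit of the phagocyte NADPH oxidase, rose in Molm-14 by 1.99 ± 0.15 (SE, adjusted p = 5.6e-08) and in MV4-11 by 0.53 ± 0.15 (SE, adjusted p = 0.025), with 14-library values of 1.87 and 0.79, although near-identical pseudogene copies make its counts uncertain. The 2 genes of the list called lower in Molm-14 were FCGR1A and MNDA. FCGR1A, an Fc receptor, fell in Molm-14, at -0.91 ± 0.15 (SE, adjusted p = 1.6e-04), and in SKNO-1, at -0.42 ± 0.15 (SE, adjusted p = 0.0498), with -1.05 in Molm-14 from 14 libraries. MNDA, a nuclear antigen of myeloid cells named here after its values were seen, went from 2.46 ± 0.0439 to 0.717 ± 0.419 CPM in Molm-14, a change of -1.94 ± 0.35 (SE, adjusted p = 3.6e-04) with 18 libraries and -1.36 ± 0.25 (SE, adjusted p = 2.1e-04) with 14. The counts were 6 higher and 2 lower of 12 tested in Molm-14, 5 and 0 of 13 in MV4-11, and 5 and 1 of 12 in SKNO-1, beside 21.5%, 5.85% and 10.8% of all genes called higher. Medians were 0.51, 0.45 and 0.49. With 14 libraries the counts were 8 and 2, 7 and 0, and 11 and 1, beside 26.6%, 8.85% and 21.2% called higher.

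**Figure D5:**
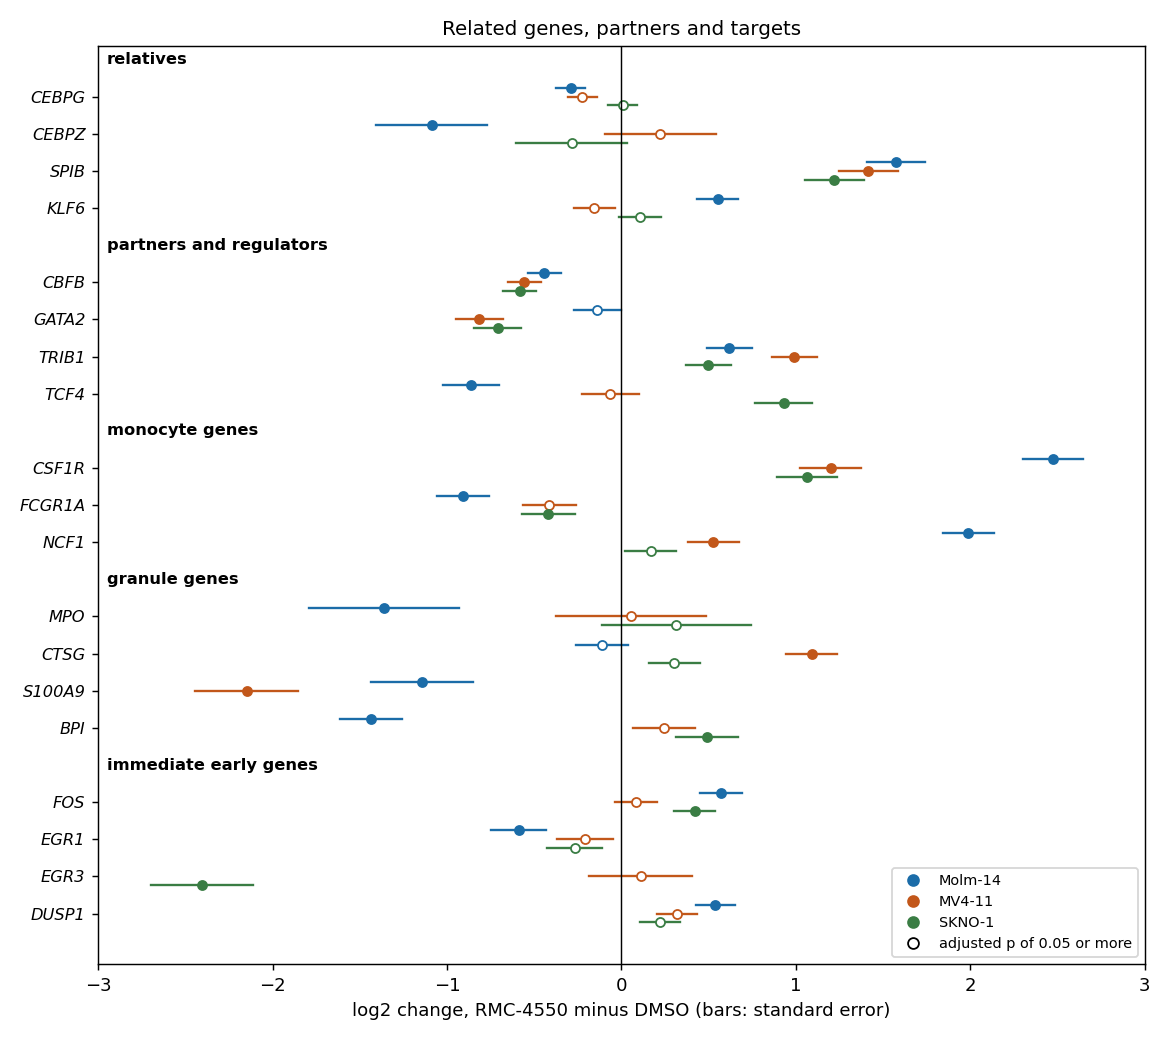
Log2 change (RMC-4550 minus DMSO, with its standard error) of the genes named from each list in the 3 lines, from the fit over 18 libraries; open circles have an adjusted p of 0.05 or more. CSF1R, SPIB and TRIB1 are higher and CBFB lower in all 3 lines, while granule genes differ in direction between lines.

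Granule genes, which C/EBP proteins activate in granulocytes, had no common direction. MPO, the myeloperoxidase of primary granules, was at 317 ± 3.44 CPM in SKNO-1 and only 3.58 ± 0.711 and 1.44 ± 0.357 CPM in Molm-14 and MV4-11 with DMSO, and fell in Molm-14, at -1.36 ± 0.43 (SE, adjusted p = 0.017). CTSG, a granule protease, rose in MV4-11 from 34.4 ± 2.61 to 73.5 ± 7.39 CPM, by 1.09 ± 0.15 (SE, adjusted p = 1.0e-04). BPI, a bactericidal granule protein, fell in Molm-14, at -1.44 ± 0.18 (SE, adjusted p = 9.9e-06), and rose in SKNO-1 by 0.49 ± 0.18 (SE, adjusted p = 0.0499). S100A9, a calcium-binding protein of neutrophils and monocytes, fell in Molm-14, at -1.14 ± 0.29 (SE, adjusted p = 0.0048), and in MV4-11, at -2.15 ± 0.29 (SE, adjusted p = 1.2e-04), from 3.32 ± 1.12 to 0.701 ± 0.0633 CPM. The list had 1 higher and 3 lower of 8 in Molm-14, 1 and 1 of 8 in MV4-11, and 1 and 0 of 6 in SKNO-1, with medians of -0.21, 0.12 and 0.29. Of all genes tested, 21.5%, 5.85% and 10.8% were called higher and 25.2%, 8.03% and 16.2% lower. With 14 libraries the counts were 1 and 4 of 8, 3 and 0 of 6, and 5 and 0 of 6, beside 26.6%, 8.85% and 21.2% called higher and 32.1%, 19.6% and 32.1% lower. The 14-library changes were -0.84 ± 0.13 (SE, adjusted p = 4.0e-05) for MPO, -1.16 for BPI and -0.78 ± 0.21 (SE, adjusted p = 0.0051) for S100A9 in Molm-14 and 1.05 for CTSG in MV4-11, all called, and S100A9 was too low to be tested in MV4-11 there.

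The immediate early genes, the class to which NR4A1 also belongs, did not all move with it. EGR1, a zinc finger target of ERK, fell in Molm-14, at -0.59 ± 0.16 (SE, adjusted p = 0.0065), and EGR3 fell in SKNO-1 from 2.21 ± 0.139 to 0.401 ± 0.0538 CPM, a change of -2.405 ± 0.29 (SE, adjusted p = 1.7e-05). FOS rose in Molm-14 and SKNO-1, by 0.57 ± 0.12 (SE, adjusted p = 0.0011) and 0.42 ± 0.12 (SE, adjusted p = 0.016), and DUSP1, a MAPK phosphatase, rose in Molm-14 by 0.54 ± 0.11 (SE, adjusted p = 0.0011). Of 11 tested in Molm-14, 4 rose and 2 fell; of 12 in MV4-11 0 were called by limma; and of 12 in SKNO-1, 1 rose and 2 fell. In those lines 46.7%, 13.9% and 27.1% of all genes tested were called. With 14 libraries 5 rose and 3 fell in Molm-14, 2 and 0 in MV4-11, and 4 and 3 in SKNO-1, beside 58.7%, 28.4% and 53.3% called. Medians were 0.22, -0.20 and -0.011. With 14 libraries EGR1, FOS and DUSP1 changed in Molm-14 by -0.37 ± 0.084 (SE, adjusted p = 0.0013), 0.49 and 0.54.

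The genes whose level followed each member most closely over the 18 libraries were found by the root mean square difference of centred log2 values, among 11013 genes with a mean of at least 5 CPM. For SPI1 they were ZNHIT1, PPP1R12C and TCIRG1, at 0.090 to 0.11, against a median of 0.56 over all candidates. CEBPA was closest to ACTG1 and PHF23, at 0.11 and 0.14, and to an unnamed gene, ENSG00000267317, at 0.13. CEBPB was nearest to ZC3H4, NR1H2 and NUMA1 (0.11 to 0.13), and CEBPD to COX6A1, EIF5A and ZNF692 (0.13 to 0.14). GFI1 was followed by CPT1A, SLC16A3 and ASH2L (0.10 to 0.11), and ZEB2 by ARID1A, KEAP1 and BCL2L13 (0.088 to 0.089). KLF4 was closest to ENSG00000268204, MYO1G and PDE3B (0.16 to 0.18), NR4A1 to GARS1, SLC35B4 and LONRF1 (0.17 to 0.19), and ID2 to SAT1, ADAMTSL5 and C16orf74 (0.17 to 0.21). These likenesses are descriptions over libraries that share lines, treatment and the split in mitochondrial share, and none of the genes is another member of the set.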

How the data were processed

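Messenger RNA of 18 libraries (3 lines, 2 treatments, 3 replicates each) was sequenced. The deposited values are log2 CPM (reads scaled to library depth) made by the authors from reads per gene with an offset of 0.5 reads, as the values themselves show. The submitters' processing notes name FastQC, STAR, limma and GRCh38, and the counter, annotation, strand and filters are not given in the sources used here. Whole reads were recovered for 100% of values under 200 reads (tolerance 0.02), and CPM is those reads over the authors' scaled library. Symbols matched 40069 of 40184 gene IDs. Lengths and positions came from GENCODE 29 and promoters from RefSeq GRCh38.p14.

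Tests used limma 3.58.1 in R 4.3.3 with an intensity trend on the deposited log2 values, 1 coefficient per group over 18 libraries, two-sided, with Benjamini-Hochberg adjustment over all genes tested in a contrast and an adjusted p under 0.05. The 16262 genes with at least 1 CPM in 3 libraries entered the fit, and a line's genes were tested with at least 1 CPM in 3 of its libraries. Tables and figures were made with Python 3.11.15, pandas 2.3.3 and matplotlib 3.10.9. The fit was tested on simulated data. The members and gene lists were chosen with earlier results of these data known. From each list up to 4 genes are named, those called in the most lines and then with the largest mean change, and the 3 genes most like each member tested in all 3 lines. The lists hold SPIC, CSF2RA and OLFM4, not analysed here, and 1 gene the rule names is not reported here. Alternatives were other scalings, pseudocounts and filters, voom weights, no trend, separate fits, the mitochondrial share as a covariate, a replicate block, leaving out each library, and leaving out 4.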

Additional observations from a re-analysis of the deposited data

Results flagged for a closer look

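The response to RMC-4550 differed between Molm-14 and MV4-11 by a test of the difference itself for 2 of 9 members tested, beside 19.5% of all genes tested. For ID2, the blocker of E proteins, the response of Molm-14 minus that of MV4-11 was 1.14 ± 0.28 (SE, adjusted p = 0.012) on the log2 scale, and for GFI1, the repressor that favours granulocytes, it was -0.31 ± 0.10 (SE, adjusted p = 0.047), both from limma with Benjamini-Hochberg adjustment over all genes tested. All 3 treated Molm-14 libraries were above the controls in ID2 and below them in GFI1, while the MV4-11 groups overlapped in both genes. Of 30 alternative analyses, 30 kept the ID2 call and 8 the GFI1 call. With the 14 libraries under 10% mitochondrial reads the ID2 difference was 0.73 and still called, and the GFI1 difference was -0.23 and not called.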

How the results depend on the processing

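Of the 4 libraries over 10% mitochondrial reads, MV4-11 holds 3. Counts of called members are set here beside the percentage of all genes tested that was called. For the Molm-14 response this percentage was 46.7% in the analysis reported, 57.5% with the mitochondrial covariate and 37.6% when the line was fitted alone. For MV4-11 it was 13.9%, 34.3% and 4.55% in that order, and for SKNO-1 27.1%, 49.6% and 56%. For SKNO-1 against the mean of the other lines it went from 3.8% to 19.5% with the covariate. The number of members called in Molm-14, 4 in the analysis reported, became 7 when the mitochondrial share was a covariate, also 7 without the 4 libraries, and 3 when the line was fitted alone. In MV4-11, 0 became 1 under pseudocounts of 1 and 0.1 CPM, a minimum mean of 5 CPM, voom weights and the replicate block, 4 with the covariate and 2 without the 4 libraries, and leaving out 1 library at a time gave 0 to 3 (3 without Molm-14 RMC-4550 replicate 2 or MV4-11 DMSO replicate 2, 1 without MV4-11 RMC-4550 replicate 1). In SKNO-1, 1 became 6 when each line was fitted alone, 2 under the replicate block, 5 with the covariate and 5 without the 4 libraries, and 0 to 3 on leaving out 1 library (0 without SKNO-1 DMSO replicate 1, 3 without Molm-14 RMC-4550 replicate 2, 2 without MV4-11 DMSO replicate 2). The 2 members whose response differed between Molm-14 and MV4-11 became 1 with no filter on low values, no filter within the line, quantile normalization, no trend, and without the 4 libraries, and 1 to 6 on leaving out 1 library (6 without MV4-11 DMSO replicate 2, 4 without Molm-14 RMC-4550 replicate 1 or MV4-11 RMC-4550 replicate 1). For SKNO-1 against the mean of the other lines, 0 became 1 under median-ratio scaling, quantile normalization, the covariate and without the 4 libraries, and 0 to 1 on leaving out 1 library. Same-numbered libraries did not deviate together in every pair (correlations of -0.40 to 0.59 over the 9 pairs). In MV4-11 the high mitochondrial libraries were DMSO replicates 1 and 3 and RMC-4550 replicate 1, which enter these correlations. They therefore cannot show whether equal numbers mark a shared batch. The samples were analysed as unpaired, and the replicate block changed no other count of members by more than 1.5 times.

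Single values that changed sign were all uncalled in the analysis reported. Under quantile normalization these were CEBPD in Molm-14 (0.080), ZEB2 in the DMSO level of Molm-14 minus MV4-11 (-0.082), KLF4 in the response of Molm-14 minus MV4-11 (-0.025) and ID2 in that of SKNO-1 minus the mean of the other lines (0.0029). Under median-ratio scaling they were GFI1 in MV4-11 (0.0096) and CEBPB in SKNO-1 minus the mean (0.0075). With the covariate they were SPI1 (0.073) and ID2 (0.15) in MV4-11, the DMSO level of Molm-14 minus MV4-11 in CEBPA (-0.26), CEBPD (0.11) and ZEB2 (-0.21), the DMSO level of SKNO-1 minus MV4-11 in SPI1 (0.26), KLF4 (-0.27) and NR4A1 (-0.25), and the response of Molm-14 minus MV4-11 in CEBPA (0.33) and CEBPB (-0.15). Without the 4 libraries they were SPI1 (0.13), ID2 (0.050) and ZEB2 (-0.083) in MV4-11, the DMSO level of Molm-14 minus MV4-11 in CEBPA (-0.12), CEBPD (0.11) and ZEB2 (-0.31), the DMSO level of SKNO-1 minus MV4-11 in SPI1 (0.25), KLF4 (-0.047), NR4A1 (-0.043) and ZEB2 (-0.081), and the response of Molm-14 minus MV4-11 in CEBPA (0.26) and CEBPB (-0.19). On leaving out 1 library, the response ranged over both signs for CEBPD in Molm-14 (-0.27 to 0.047) and for CEBPB (-0.043 to 0.16) and GFI1 (-0.071 to 0.012) in MV4-11. So did the response of Molm-14 minus MV4-11 for CEBPA (-0.37 to 0.10), CEBPB (-0.0017 to 0.21) and KLF4 (-0.087 to 0.32), and that of SKNO-1 minus the mean for CEBPA (-0.20 to 0.035), CEBPB (-0.066 to 0.065), ID2 (-0.12 to 0.080), SPI1 (-0.13 to 0.048) and ZEB2 (-0.0016 to 0.14). DMSO levels did so for ZEB2 in Molm-14 minus MV4-11 (-0.065 to 0.22) and, in SKNO-1 minus MV4-11, for KLF4 (-0.0036 to 0.078) and NR4A1 (-0.036 to 0.15). The cause was not tested.

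Over all genes, 862 rose and 1183 fell in MV4-11 in the analysis reported, 326 and 345 in a separate fit, 1788 and 3266 with the covariate and 1213 and 2684 without the 4 libraries. In SKNO-1 these were 1588 and 2381, then 3453 and 4756, 2937 and 4333, and 3111 and 4707. Median-ratio scaling moved the share of higher calls in SKNO-1 from 40.0% to 50.4%. CEBPE in Molm-14, at 4 to 11 reads a library, is the member limited by depth.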
